A study of Mus musculus with 2 samples.

Results

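The genes described here are 6 interferon-induced genes, Ifi27, Ifit1, Ifit3, Isg15, Irf7 and Bst2, and 3 genes of antigen presentation, B2m, H2-K1 and H2-D1, 9 of the 22587 gene symbols in the deposited matrices. They were found by their symbol in the feature lists of both libraries, and all 9 had at least 1 UMI in each library. The study asked how loss of Opa1, which encodes a dynamin-like GTPase of the inner mitochondrial membrane, affects adult neural stem cells (NSCs). YFP+ hippocampal cells were compared between control transgenic mice (CT; Nestin-CreERT2:Rosa26YFP) and Opa1 cKO mice, which carried floxed Opa1 alleles in addition. Mice of both groups were on a C57/BL/6 background, were heterozygous for Cre, received tamoxifen (TAM) at 8 weeks of age and were 12 weeks old at collection, 4 weeks post-TAM. Cre and YFP were thus activated in Nestin-expressing cells, and live YFP+ cells of 3 mice per genotype were pooled. The strain label of both libraries names the floxed Opa1 allele, whereas the sorting protocol describes the control as negative for it. The 10x Genomics 3′ assay gave 1 library per genotype, with each captured mRNA molecule of a cell counted once by its unique molecular identifier (UMI). There is therefore no test between genotypes and no p-value. Levels are UMIs of a gene per 1000000 UMIs of a class of cells (CPM), a log2 ratio is the log2 of one such level over another, and all intervals are exact 95% intervals that cover counting error only, not differences between mice or preparations.

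Interferons are secreted when a cell senses foreign or misplaced nucleic acid. Their receptors signal through JAK kinases to a complex of STAT and IRF proteins, which binds the interferon-stimulated response element (ISRE) in the promoters of induced genes. Among the products are antiviral proteins and the MHC class I molecules, which present peptides from inside the cell to cytotoxic T cells. Mitochondrial DNA and double-stranded mitochondrial RNA that reach the cytosol are known triggers of the pathway. NSCs and astrocytes of the healthy brain are known for low levels of MHC class I.

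The promoters of 8 of the 9 genes were found in a RefSeq table of windows from 250 bases before to 50 bases after the gene start (GRCm38.p6); Ifi27 is named only. The ISRE repeat, written as GAAA, any 2 bases and GAAA again, was searched on both strands, and overlapping matches were counted. It was present in 5 of the 8 windows, those of Ifit1, Ifit3, Isg15, Bst2 and B2m, and in 3.44% of all 32851 windows of the same length. The shorter core GAAGTGAAA was searched after the class I genes had shown no repeat, and it occurred in H2-K1 and H2-D1 and in 0.505% of all windows. Irf7 had neither. These matches describe letters in a window and show no binding. The 5 windows below are shown because, of the genes with a window, these had an interval above 0 for the ratio between genotypes in the NSC pool, and capitals mark the matched letters on either strand.
Isg15 (chr4:156200769-156201068, minus strand): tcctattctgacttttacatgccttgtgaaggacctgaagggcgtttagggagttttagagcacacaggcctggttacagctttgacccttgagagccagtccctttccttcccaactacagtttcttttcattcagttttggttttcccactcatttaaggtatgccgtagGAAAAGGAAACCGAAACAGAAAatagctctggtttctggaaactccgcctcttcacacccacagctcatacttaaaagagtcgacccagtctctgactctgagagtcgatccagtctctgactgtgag
Ifit1 (chr19:34640639-34640938, plus strand): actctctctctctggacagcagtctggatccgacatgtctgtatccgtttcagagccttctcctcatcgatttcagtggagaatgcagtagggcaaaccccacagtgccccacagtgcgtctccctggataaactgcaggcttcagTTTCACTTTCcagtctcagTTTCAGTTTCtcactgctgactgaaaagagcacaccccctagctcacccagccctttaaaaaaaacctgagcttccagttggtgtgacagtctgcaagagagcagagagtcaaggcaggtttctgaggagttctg
B2m (chr2:122147437-122147736, plus strand): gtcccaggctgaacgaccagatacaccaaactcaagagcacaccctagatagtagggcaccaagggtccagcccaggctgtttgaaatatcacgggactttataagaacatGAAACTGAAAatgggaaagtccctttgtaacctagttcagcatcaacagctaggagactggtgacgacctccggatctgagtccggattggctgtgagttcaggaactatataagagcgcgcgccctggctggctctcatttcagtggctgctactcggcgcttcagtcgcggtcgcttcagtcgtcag
H2-K1 (chr17:34000284-34000583, minus strand): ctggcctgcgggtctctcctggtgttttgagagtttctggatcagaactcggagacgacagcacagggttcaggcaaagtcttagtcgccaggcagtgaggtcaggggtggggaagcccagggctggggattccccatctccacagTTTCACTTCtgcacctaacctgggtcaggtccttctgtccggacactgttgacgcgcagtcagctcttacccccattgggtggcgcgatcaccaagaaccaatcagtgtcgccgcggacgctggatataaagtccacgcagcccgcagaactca
H2-D1 (chr17:35262844-35263143, plus strand): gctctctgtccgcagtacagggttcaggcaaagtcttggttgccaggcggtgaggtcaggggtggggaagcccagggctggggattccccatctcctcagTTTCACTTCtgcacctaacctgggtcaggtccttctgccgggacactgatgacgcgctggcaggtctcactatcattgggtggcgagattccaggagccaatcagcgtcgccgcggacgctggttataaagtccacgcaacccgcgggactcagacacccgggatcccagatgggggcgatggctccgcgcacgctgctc
The Isg15 window holds 3 overlapping repeats in 1 run, the Ifit1 window 2 separate ones on the opposite strand, and the 2 class I heavy chain windows the same core at different distances from the RefSeq gene start, -104 in H2-K1 and -150 in H2-D1. In the GENCODE annotation H2-D1 begins further upstream, at 35262730, so there its window lies inside the gene.

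After the filters described in the methods, 1790 CT and 3764 Opa1 cKO cells remained, with medians of 2555 and 3008 UMIs. The libraries shared 36 barcodes, 9 of them among the kept cells, and without these the ratio of each of the 9 genes between genotypes and between mitochondrial groups kept its direction. Clusters were named from fixed markers. The class of NSC pool-like cells, 1377 from CT and 2586 from Opa1 cKO, joined 2 clusters, both with all 12 NSC pool markers more than 2-fold over the lower quartile of the other clusters. One of them, led by the stress gene Nupr1, held 3 CT and 1795 Opa1 cKO cells, so the genotypes came largely from different clusters. Activated NSC-like cells numbered 12 in CT and 407 in Opa1 cKO, and the CT cells were too few to compare. Their cluster also had all 12 NSC pool markers more than 2-fold over this baseline, so these markers do not separate it from the NSC pool. It was named from 7 activated NSC markers among its 50 leading genes, against 2 NSC pool markers. Smaller classes were progenitor and neuron-like (139 and 170 cells), ependymal-like (39 and 244), mural-like (94 and 167), endothelial-like (55 and 89) and oligodendrocyte-like (74 and 101). The endothelial-like cluster was led by globin genes and held mural markers (16956 CPM in CT) at about the level of endothelial markers (15466 CPM). Opa1 itself (chromosome 16, 29579334 to 29654884, plus strand) had a level of 8.01 CPM in the NSC pool of Opa1 cKO against 18.5 CPM in CT, with a log2 ratio of −1.21 (−1.71 to −0.71), although the assay also counts 3′ ends of transcripts without the deleted exons.

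In NSC pool-like cells, H2-D1 had a log2 ratio of Opa1 cKO over CT of 1.28, and Ifit1 and Isg15 had the highest ratios of the 9 genes, 2.68 and 3.72, on few UMIs. Ifi27, B2m and H2-K1 were 1.3- to 1.5-fold higher in Opa1 cKO, and for Ifit3, Irf7 and Bst2 the interval of the ratio reached 0. Thus 3 of the 9 genes were at least 2-fold higher and 0 were 2-fold lower, where 3.97% and 3.75% of the 11301 genes counted, those with 20 UMIs or more, were. The median log2 ratio was 0.14 over genes with at least 300 UMIs, and smaller differences are read relative to it.

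Ifi27 (ENSMUSG00000064215; chromosome 12, 103434211 to 103440239), a small membrane protein grouped here with the interferon-induced genes, was counted 638 times in CT and 2192 times in Opa1 cKO. Its level was 258 CPM (247 to 269) in Opa1 cKO against 169 CPM (156 to 183) in CT, which gives a log2 ratio of 0.61 (0.48 to 0.74). Oligodendrocyte-like cells, which the paper counts among non-neuronal lineages and which were also sorted as YFP+, had a ratio of 0.61 (0.13 to 1.10), with 184 and 280 CPM. In CT 12 of their 53 UMIs were in 1 cell. Without the richest cell of each library the ratio was 0.85 (0.32 to 1.40). Ifi27 was found in 45.4% of Opa1 cKO NSC pool-like cells (median 2962 UMIs) and in 54.5% of Opa1 cKO oligodendrocyte-like cells (median 3914 UMIs). With each cell thinned to 1500 UMIs, drawn at random, the shares were 28.7% and 37.6%, and 16.6% in progenitor and neuron-like cells, so they differed between classes of 1 library. Ifi27 supplied most UMIs of the 6 interferon-induced genes, whose sum was 312 CPM (300.1 to 324) in Opa1 cKO against 196 CPM (182 to 211) in CT.

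Ifit1 (ENSMUSG00000034459; chromosome 19, 34640871 to 34650009), which binds viral RNA lacking host cap marks, was counted 11 times in CT and 159 times in Opa1 cKO. These are 2.91 CPM (1.45 to 5.21) and 18.7 CPM (15.9 to 21.9), a log2 ratio of 2.68 (1.81 to 3.72). Isg15 (ENSMUSG00000035692; chromosome 4, 156199424 to 156200818), a ubiquitin-like protein that is attached to other proteins, had 3 and 89 UMIs. Its level was 10.5 CPM (8.41 to 12.9) in Opa1 cKO against 0.794 CPM (0.164 to 2.32) in CT, and the log2 ratio was 3.72 (2.13 to 6.03). Both genes were therefore seldom seen, Ifit1 in 1.51% and Isg15 in 1.93% of NSC pool-like cells of Opa1 cKO (median 2962 UMIs). In oligodendrocyte-like cells (median 3914 UMIs) the shares were 0.990% and 1.98%, on 1 and 2 of 101 cells, too few to set a background.

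For the other 3 interferon-induced genes the difference was within counting error. Ifit3 (chromosome 19, 34583531 to 34588731) was at 14.4 CPM (11.9 to 17.1) in Opa1 cKO against 14.3 CPM (10.7 to 18.7) in CT. In the last 500 bases of its transcript, 4.71% of all 98-base words also occur in Ifit3b. Reads of these words cannot be assigned to 1 of the 2 genes by sequence, and their effect on the counts was not examined. Irf7 (chromosome 7, 141262706 to 141266481), the transcription factor that amplifies interferon production, had 6 and 20 UMIs and a log2 ratio of 0.57 (−0.80 to 2.17). Bst2 (chromosome 8, 71534255 to 71537456), also called tetherin because it holds enveloped viruses at the cell surface, was at 7.68 and 7.89 CPM. Its log2 ratio was 0.04 (−0.61 to 0.72) but 0.77 without the YFP filter, 0.72 when interferon, mitochondrial and stress response genes were kept out of the clustering and 0.76 without the 1% of cells richest in the 9 genes. Likewise the Ifit3 ratio moved from 0.01 to 0.63 without the YFP filter and to 0.86 without cells that held a UMI of microglial, endothelial or mural markers, but to −0.78 without the few cells rich in these genes described further on.

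Among the antigen presentation genes, H2-D1 (ENSMUSG00000073411; chromosome 17, 35262730 to 35267499), a class I heavy chain, was counted 172 times in CT and 938 times in Opa1 cKO. The level was 110.4 CPM (103 to 118) in Opa1 cKO against 45.5 CPM (39.0 to 52.9) in CT, which gives a log2 ratio of 1.28 (1.04 to 1.52). It was detected in 10.7% of NSC pool-like cells in CT (median 2495 UMIs) and in 25.9% in Opa1 cKO. At 1500 UMIs per cell, where depth no longer differed, 94 CT and 198 Opa1 cKO cells with fewer UMIs were left out. The shares there were 6.47% (5.19 to 7.96) and 13.2% (11.9 to 14.6), while oligodendrocyte-like cells held H2-D1 in 5.41% in CT and 5.94% in Opa1 cKO (13.5% and 12.9% before thinning, at medians of 3767.5 and 3914 UMIs). H2-K1 (ENSMUSG00000061232; chromosome 17, 33996017 to 34000347), the other class I heavy chain, was at 94.8 CPM (85.2 to 105) in CT and 127.5 CPM (120.02 to 135) in the mutant, a log2 ratio of 0.43 (0.25 to 0.60). B2m (ENSMUSG00000060802; chromosome 2, 122147686 to 122153083), the light chain shared by all class I molecules, was at 258 CPM (242 to 274) and 384 CPM (371 to 397), with a ratio of 0.57 (0.47 to 0.68). The H2-D1 interval thus lay above those of both H2-K1 and B2m. No 98-base word in the last 500 bases of H2-K1 or H2-D1 occurs in another gene, but the class I family is closely related and near matches were not examined.

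Markers of other cell types were read in the same cells. The 10 microglial markers were all detected in both libraries and summed to 131.5 CPM in Opa1 cKO against 69.6 CPM in CT. Of the 10 markers, 8 had at most 6 UMIs each in CT and 31 in Opa1 cKO. Of 9 endothelial markers 8 were detected, with Kdr at 0 in both libraries, and summed to 33.0 CPM in Opa1 cKO against 46.6 CPM in CT, and all 9 mural markers were, at 129.6 against 171 CPM. Without the cells that held any UMI of these 3 marker lists, 682 CT and 1117 Opa1 cKO cells remained, and the antigen presentation and interferon-induced sums kept log2 ratios of 0.61 and 0.67. Depth also differed, with medians of 2495 and 2962 UMIs, and after thinning to 1500 UMIs the 2 sums were at 0.57 and 0.62.

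**Figure D1:**
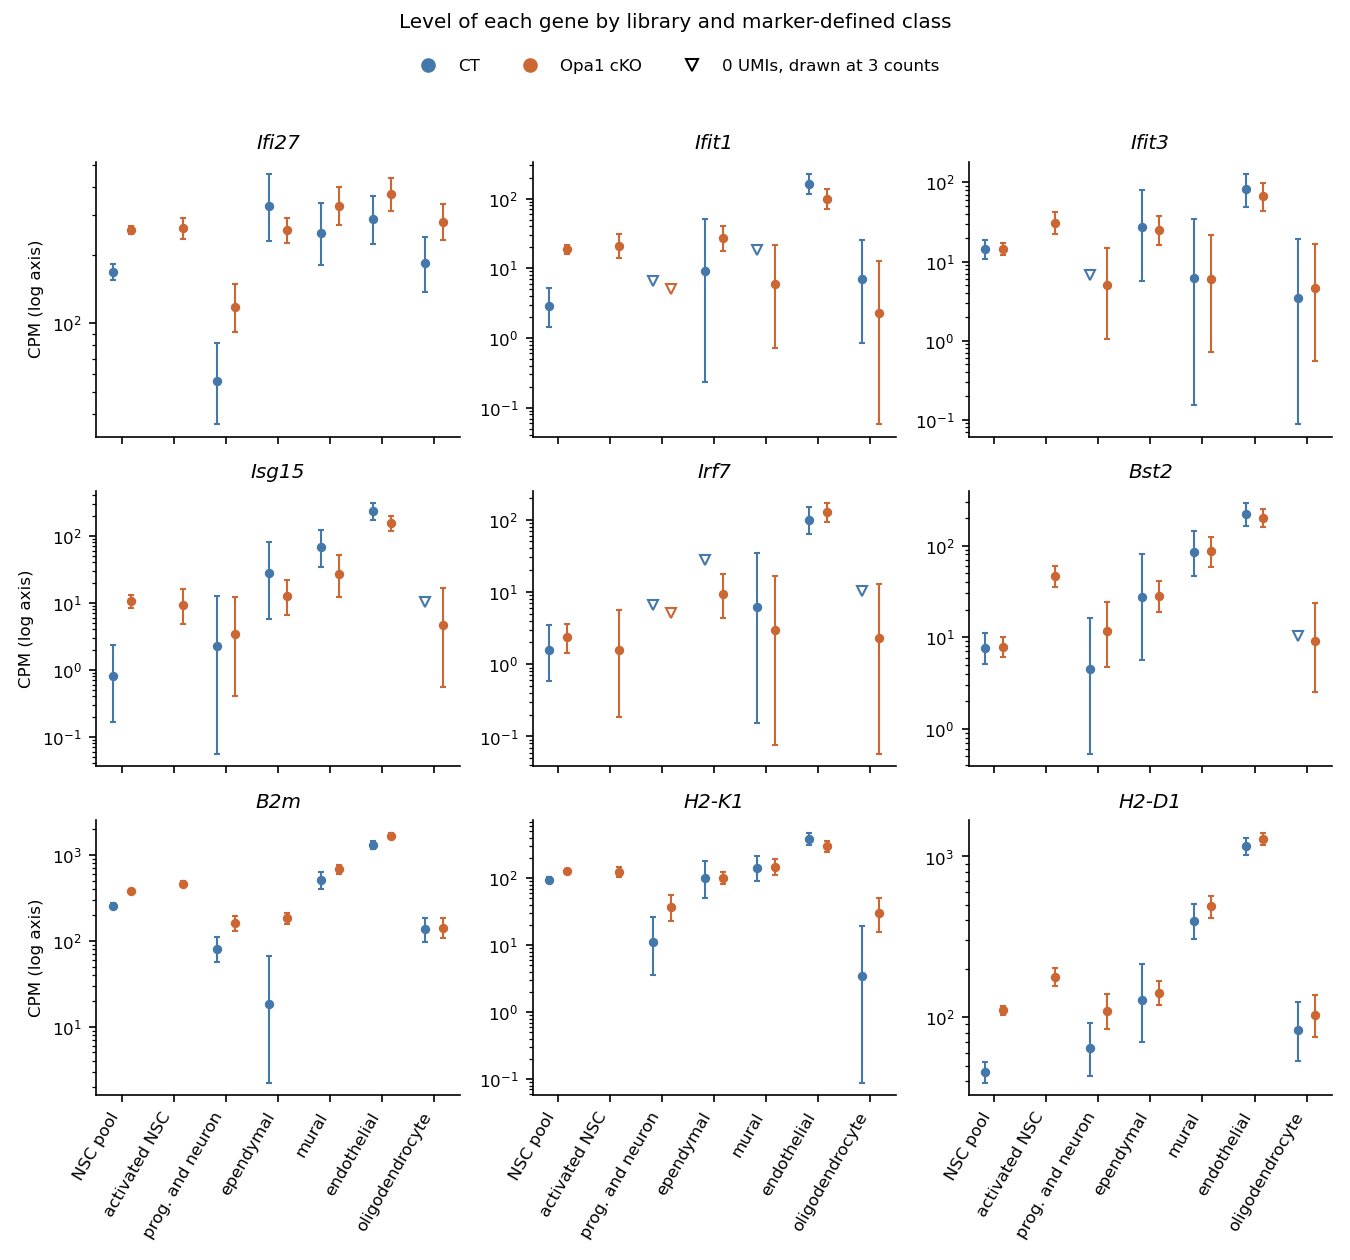
Level of each of the 9 genes (CPM, log axis, a different range in each panel) by marker-defined class in the CT and Opa1 cKO libraries. Points are levels with exact 95% Poisson intervals, open triangles mark 0 UMIs drawn at the level of 3 counts, and the 12 CT activated NSC-like cells are not drawn. Endothelial-like cells had the highest level of 8 of the 9 genes in CT, Ifi27 being the exception, and of all 9 in Opa1 cKO.

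The plot by class shows where the genes were highest. In Opa1 cKO, endothelial-like cells led for all 9 genes, with 1677 CPM of B2m (1549.9 to 1811), 1285 CPM of H2-D1 (1175 to 1404), 202 CPM of Bst2 (160 to 252), 153 CPM of Isg15 (116 to 197), 127 CPM of Irf7 (93.9 to 168) and 98.5 CPM of Ifit1 (69.7 to 135). For H2-D1 the next class in Opa1 cKO was mural-like with 488 CPM (416 to 569), then activated NSC-like with 178 CPM (156 to 203). Ependymal-like (142 CPM), NSC pool-like (110.4), progenitor and neuron-like (109) and oligodendrocyte-like cells (103) followed. The intervals of the last 3 overlapped each other, and the NSC pool-like interval ended at 118 CPM, just below the 119 at which the ependymal-like interval began. Of the 45 H2-D1 UMIs in Opa1 cKO oligodendrocyte-like cells 31 were in 1 cell, and without it the class was at 32.4 CPM (17.7 to 54.4), below the other 6. In CT the NSC pool-like cells were at 45.5 CPM of H2-D1, against 64.4 CPM (43.2 to 92.5) in progenitor and neuron-like and 83.3 CPM (53.4 to 124) in oligodendrocyte-like cells. In the latter 13 of 24 UMIs were in 1 cell, and without it the level was 39.0 CPM (19.5 to 69.8), so the intervals of these 3 classes overlapped.

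For B2m the order in Opa1 cKO was endothelial-like, mural-like (679 CPM), activated NSC-like (463), NSC pool-like (384), ependymal-like (183), progenitor and neuron-like (160) and oligodendrocyte-like (142). Only the intervals of the last 3 overlapped between neighbours. Ifi27 ran from 118 CPM (91.7 to 149) in progenitor and neuron-like to 371 CPM (312 to 436) in endothelial-like cells of Opa1 cKO, and the 4 classes with 258 to 280 CPM overlapped in their intervals. Irf7 was at 98.8 CPM in CT endothelial-like cells and measured at 9.47 CPM or less in every class other than endothelial-like. However, the 0 UMIs in CT ependymal-like and oligodendrocyte-like cells allow up to 33.7 and 12.8 CPM. Ifit1 and Irf7 had 0 UMIs in the progenitor and neuron-like class of both libraries, which allows levels of up to 8.20 CPM (CT) and 6.20 CPM (Opa1 cKO).

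The ratio between genotypes was smaller in the other classes compared for H2-D1, but not for every gene. For H2-D1 the log2 ratio was 0.15 (−0.07 to 0.37) in endothelial-like and 0.30 (−0.13 to 0.73) in mural-like cells, and 0.15 (−0.64 to 1.06) in the ependymal-like and 0.31 (−0.44 to 1.09) in the oligodendrocyte-like class, where it was −0.27 (−1.51 to 1.02) without the richest cell of each library. The first 2 intervals ended below that of NSC pool-like cells. Progenitor and neuron-like cells had 0.76 (0.11 to 1.45) for H2-D1, 1.74 (0.30 to 3.49) for H2-K1 on 5 and 22 UMIs, 1.00 (0.43 to 1.59) for B2m and 1.08 (0.41 to 1.80) for Ifi27, each higher in Opa1 cKO. Of the 4 genes with 20 UMIs or more there, 2 reached 2-fold, Ifi27 and H2-K1, beside 5.52% of 7118 genes higher, and 0 were 2-fold lower, beside 8.15%. Isg15 and Ifit1 were lower in Opa1 cKO endothelial-like cells, with log2 ratios of −0.60 (−1.16 to −0.04) and −0.73 (−1.42 to −0.04). There 0 of 9 genes reached 2-fold in either direction, beside 4.36% of 5302 genes higher and 7.64% lower. In ependymal-like cells 2 of 7 genes were 2-fold higher, beside 12.9% of 7060 genes, and 0 lower, beside 7.25%, with B2m among the higher ones at 2 UMIs in 39 CT cells and a ratio of 3.33 (1.45 to 6.38). The other was Ifit1 on 1 and 26 UMIs, 13 of them in 1 cell, with an interval that reached 0. Mural-like cells had 0 of 6 genes 2-fold higher, beside 7.99%, and 1 lower, beside 6.17%, which was Isg15 on 11 and 9 UMIs (−1.33, −2.78 to 0.08). In CT 8 of those 11 UMIs were in 1 cell, and without the richest cell of each library the ratio was −0.06 (−2.29 to 2.57). In oligodendrocyte-like cells 0 of 3 genes were past 2-fold in either direction, beside 5% and 6.24%.

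Opa1 cKO NSC pool-like cells differed in the share of UMIs from the 13 mitochondrially encoded mRNAs (mt share). This share was under 1% in 1579 of them (low) and 3% or more in 768 (normal), with 239 between. CT had 2 low, 107 middle and 1268 normal cells, so the low group exists nearly only in Opa1 cKO. The mt share was not used to choose the genes, but mitochondrial genes were among those from which the clusters were formed.

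H2-D1 followed this split in NSC pool-like cells. It was at 47.1 CPM (40.2 to 54.8) in CT normal cells and at 52.3 CPM (43.7 to 62.0) in Opa1 cKO normal cells, which overlap, a log2 ratio of 0.15 (−0.19 to 0.49). In the middle and the low cells of Opa1 cKO it was at 135 CPM, with intervals of 109 to 164 and 125 to 145. The log2 ratio of low over normal cells within Opa1 cKO was 1.37 (1.10 to 1.65), and that of middle over normal cells 1.37 (0.97 to 1.76). Between middle and normal cells 3 of 6 genes with 20 UMIs or more were 2-fold higher, beside 6.33% of 9243, and 0 lower, beside 2.17%. The 3 were H2-D1, Ifit1 and Ifit3. However, 1 middle cell held 7 of the 11 Ifit1 UMIs and 5 of the 16 Ifit3 UMIs of its group. Isg15 had 0 UMIs in the 239 middle cells, which allows up to 5.12 CPM. For H2-D1 the CT middle cells, with 24.1 CPM (8.86 to 52.6) on 6 UMIs, were not higher than CT normal cells. After thinning to 1500 UMIs, H2-D1 was found in 6.68% of CT normal, 6.51% of Opa1 cKO normal and 16.3% of Opa1 cKO low cells, the first 2 close to the oligodendrocyte-like share given above.

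H2-K1 had the same pattern with a smaller difference, 96.2 CPM in CT normal cells, 85.9 in Opa1 cKO normal, 142 in middle and 146 in low cells. Its log2 ratio of low over normal cells was 0.76 (0.54 to 0.98). B2m differed from both heavy chains. Its level in Opa1 cKO normal cells, 353 CPM (330 to 377), was already above the 260 CPM (244 to 278) of CT normal cells, a log2 ratio of 0.44 (0.31 to 0.57). Low cells held 397 CPM (380 to 414), and the ratio of low over normal cells of 0.17 (0.06 to 0.28) was under the 0.28 of the median gene with at least 300 UMIs. Relative to that gene B2m was lower in low cells by −0.11. Ifi27 resembled B2m, with 164 CPM in CT normal, 225 in Opa1 cKO normal and 277 in low cells, and its low over normal ratio of 0.30 (0.15 to 0.44) was near that of the median gene.

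**Figure D2:**
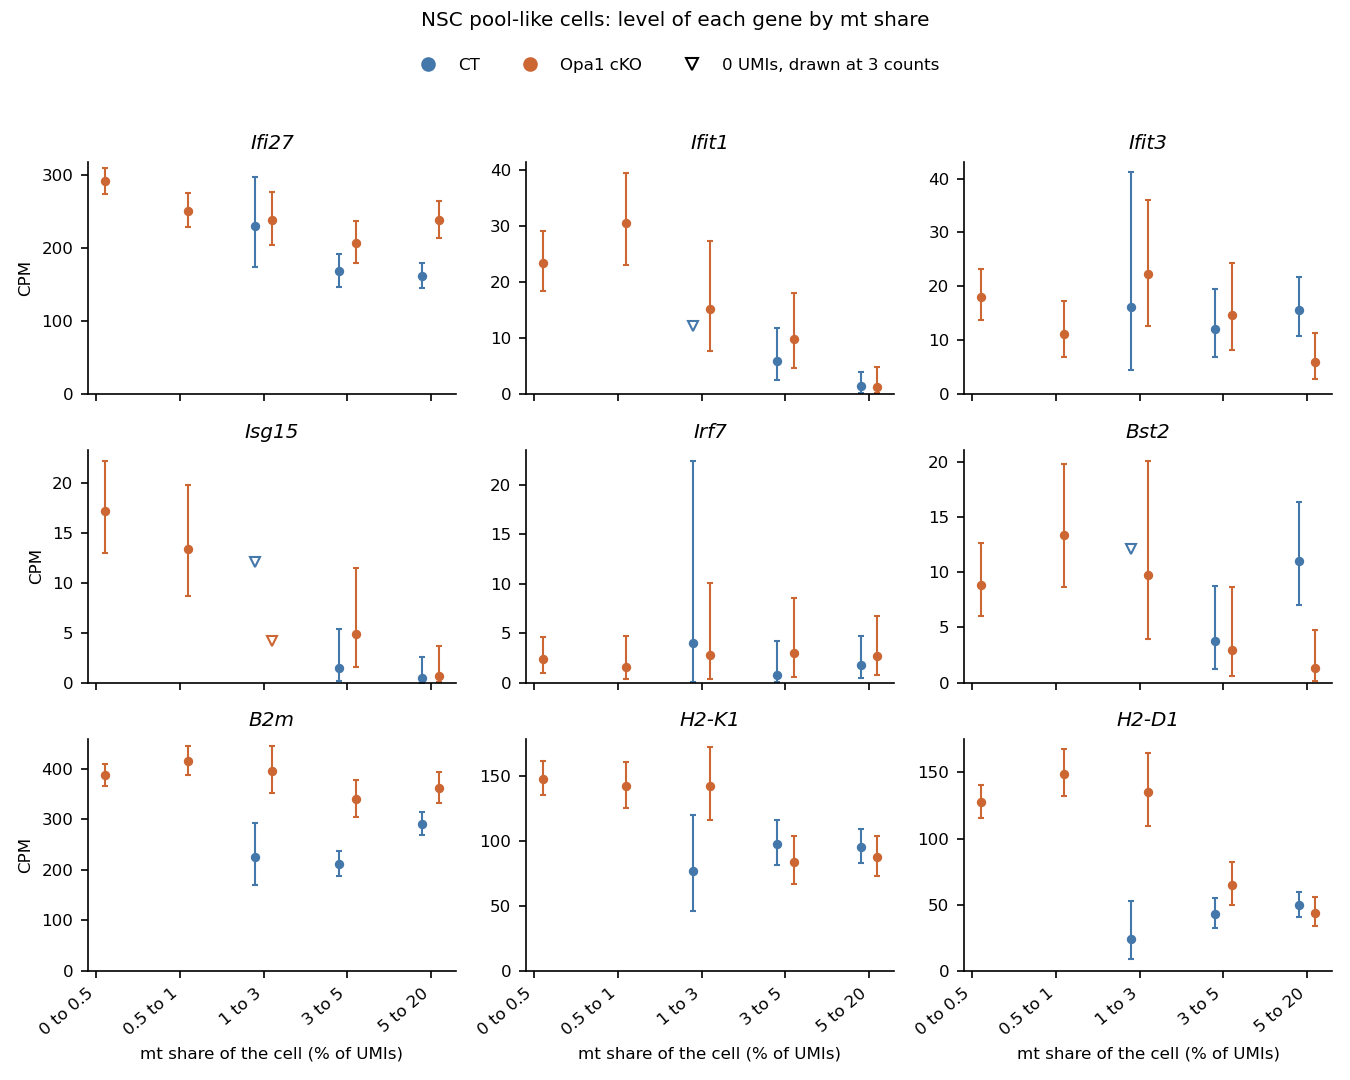
Level (CPM, axis from 0) of each gene in NSC pool-like cells grouped by the cell's mt share (% of UMIs), for CT and Opa1 cKO. Bars are exact 95% Poisson intervals, open triangles mark 0 UMIs drawn at 3 counts, and groups of fewer than 20 cells are left out. H2-D1 in Opa1 cKO stepped from 64.9 CPM at 3 to 5% to 135 CPM at 1 to 3%.

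In finer groups of mt share, H2-D1 in Opa1 cKO was at 127 CPM under 0.5%, 149 at 0.5 to 1%, 135 at 1 to 3%, 64.9 at 3 to 5% and 43.8 at 5 to 20%. The 3 groups under 3% overlapped in their intervals and lay above both groups over 3%. In CT the values were 24.1, 42.7 and 49.8 CPM for the 3 groups from 1 to 20%. At 1 to 3% the libraries therefore differed for H2-D1, and from 3% upwards their intervals overlapped. Within the 1 to 3% group the mt share of the summed UMIs was 1.73% in Opa1 cKO and 2.54% in CT. The libraries were thus not matched in mt share there. At 1 to 3%, 1 of the 3 antigen presentation genes was 2-fold higher in Opa1 cKO than in CT, beside 9.35% of the genes counted. The median log2 ratio of the 3 was 0.89. Overlap does not show equal levels, and no ratio of H2-D1 was taken at 3 to 5% or at 5 to 20%. At 3 to 5% Opa1 cKO was at 64.9 CPM (50.2 to 82.5) against 42.7 CPM (32.4 to 55.3) in CT. At 5 to 20% it was the lower library, with 43.8 against 49.8 CPM.

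The rare interferon-induced genes were also higher in low than in normal cells of Opa1 cKO. Ifit1 was at 25.9 CPM (21.7 to 30.6) in low and 4.75 CPM (2.46 to 8.30) in normal cells, a log2 ratio of 2.45 (1.59 to 3.43). It was 1.33 without the 1% of cells richest in the 9 genes, and 0.81 (−0.67 to 2.60), no longer past 2-fold, on 18 and 5 UMIs without the few cells rich in these genes described further on. Isg15 was at 15.8 and 2.38 CPM, on 83 and 6 UMIs, with a ratio of 2.73 (1.55 to 4.22). Bst2 was at 10.5 CPM (7.89 to 13.6) in low cells and at 1.98 CPM (0.643 to 4.62) in normal cells, a ratio of 2.40 (1.09 to 4.08), and the CT normal cells stood at 8.23 CPM (5.51 to 11.8). Opa1 cKO normal cells were thus below CT normal cells for Bst2, with a log2 ratio of −2.05 (−3.78 to −0.67). Ifit3 had a low over normal ratio of 0.72 (0.05 to 1.44) that turned negative under 3 alternatives, and Irf7 one of −0.40 (−1.90 to 1.20).

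With 20 UMIs or more in low and normal cells together, 8 of the 9 genes could be counted, and 4 of them were 2-fold higher in low cells, beside 6.32% of 10668 genes. None of the 8 was 2-fold lower, beside 2.15%. Between Opa1 cKO and CT normal cells 0 of 7 genes were 2-fold higher, beside 1.01% of 10382, and Bst2 was the 1 gene 2-fold lower, beside 4.57%. Microglial markers summed to 67.0 CPM in CT normal, 128 CPM in Opa1 cKO normal and 134 CPM in Opa1 cKO low cells, and Cx3cr1 and Tmem119 were at 0 in the low cells. The summed microglial markers were thus at similar levels in the 2 Opa1 cKO groups. Their part in the levels of the 9 genes was not tested.

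**Figure D3:**
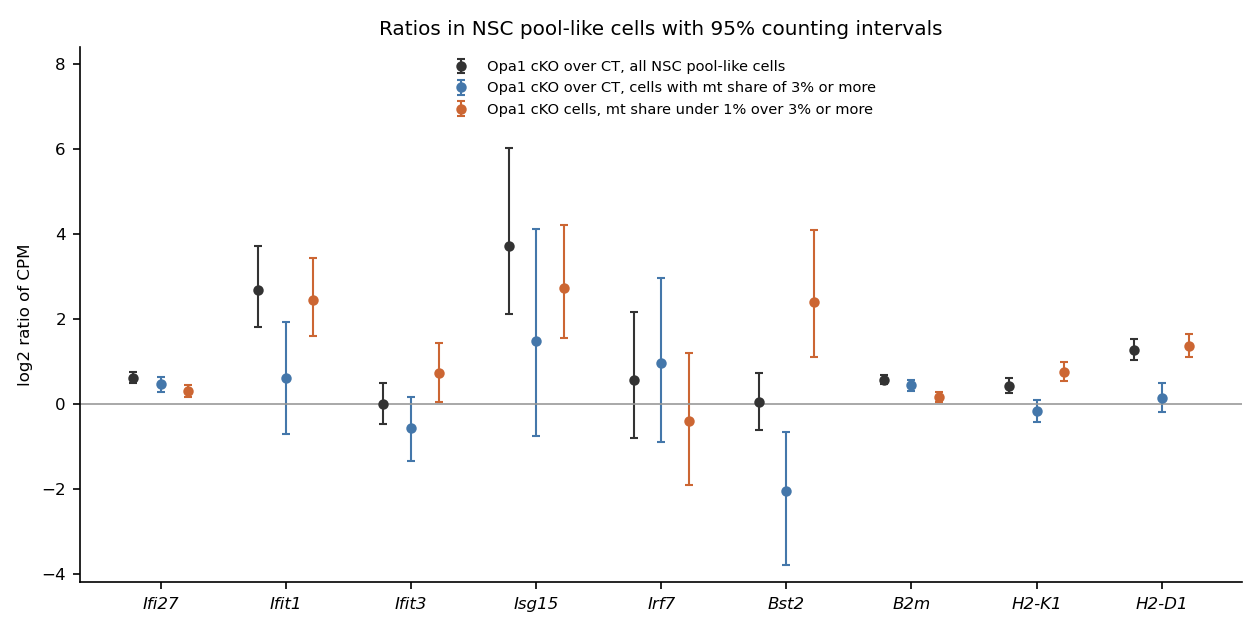
Log2 ratios of CPM for each gene in NSC pool-like cells, with 95% counting intervals, for Opa1 cKO over CT in all cells, the same in cells with an mt share of 3% or more, and cells under 1% over cells of 3% or more within Opa1 cKO. H2-D1 was at 1.28, 0.15 and 1.37 in these 3 comparisons, while B2m was at 0.57, 0.44 and 0.17.

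The UMIs of the rare genes came from few cells. Over Ifit1, Ifit3, Isg15, Irf7 and Bst2 together, 24 of 2586 Opa1 cKO NSC pool-like cells (0.928%, 0.596 to 1.38) held at least 4 UMIs, and these 24 cells held 264 of the 457 UMIs of the 5 genes (57.8%). In CT, 2 of 1377 cells (0.145%, 0.0176 to 0.524) reached 4 UMIs, and they held 13 of the 103 UMIs. The limit of 4 was set after the distribution was seen. Of the 24 cells, 20 were low, 1 middle and 3 normal in mt share, which is 1.27% (0.775 to 1.95) of low and 0.391% (0.0806 to 1.14) of normal cells. The richest cell held 43 UMIs of the 5 genes, 9 of Ifit1, 12 of Ifit3, 14 of Isg15, 3 of Irf7 and 5 of Bst2, at 2996 UMIs in all. The next held 32 UMIs of Ifit1, and the third 17 of Ifit1, 12 of Ifit3 and 5 of Isg15. Without the cells that reached 4 UMIs the log2 ratio of Ifit1 between the genotypes was 0.60 instead of 2.68, while that of the antigen presentation sum was 0.64 with and without them. The Isg15 ratio, 3.72 in all cells, was 2.39 or more under all 15 alternatives, this one included.

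**Figure D4:**
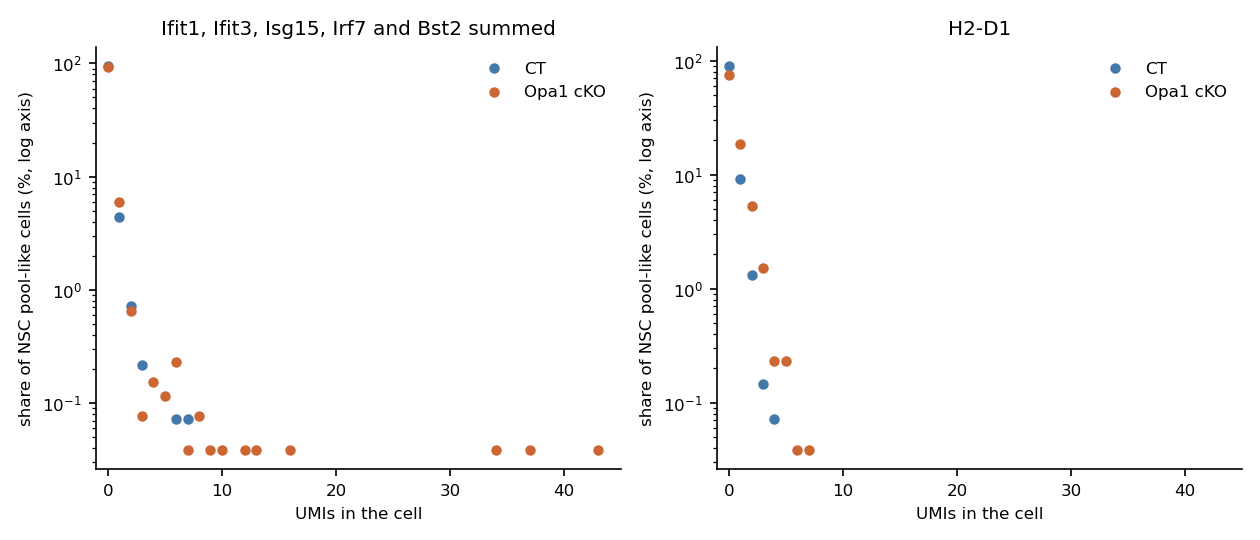
Share of NSC pool-like cells (%, log axis) by the number of UMIs in the cell, for the 5 interferon-induced genes other than Ifi27 summed and for H2-D1, in CT and Opa1 cKO. The summed genes reach 43 UMIs in 1 Opa1 cKO cell and 7 in CT, whereas no cell held more than 7 UMIs of H2-D1.

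The same cells tended to hold several of the genes. Among 39 Opa1 cKO cells with Ifit1, 15 also held Isg15 (38.5%, 23.4 to 55.4), against 35 of 2547 cells without Ifit1 (1.37%, 0.959 to 1.91). Ifit3 was found in 15 of the 39 as well, and in 2.39% of the others. For Bst2 the shares were 1 of 39 and 2.04%. H2-D1 was spread over 670 cells with at most 7 UMIs in any of them, and its 5 richest cells held 2.99% of its UMIs, against 45.3% for Ifit1.

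In the 24 cells, 9 of 11 other genes of the pathway, chosen after these cells were found, had a ratio to the remaining 2562 NSC pool-like cells of Opa1 cKO whose interval lay above 0, Irf9 being among those whose interval reached 0. Over all 10792 genes counted the share was 3.11%, and since both the cells and the 11 genes were chosen on these UMIs, the count is a description. Rtp4 was at 287 CPM against 4.53 CPM, Oasl2 at 81.9 against 0.834, Ifitm3 at 533 against 49.1 and Stat2 at 143 against 10.6. H2-D1 was at 225 against 109 CPM, with a log2 ratio of 1.05 (0.37 to 1.65), and for H2-K1 the interval of the ratio reached 0 (0.54, −0.22 to 1.21). For Ifi27, which supplied most UMIs of the interferon-induced sum, it reached 0 as well (0.48, −0.04 to 0.96). The 24 cells held 58944 CPM of NSC pool markers (68954 in the other cells), 133 CPM of microglial markers (131) and 10.2 CPM, 1 UMI, of endothelial markers (33.2). Their median was 3730.5 UMIs, against 2962 over all Opa1 cKO NSC pool-like cells, and the limit of 4 UMIs was not scaled to depth.

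Activated NSC-like cells of Opa1 cKO are described beside the NSC pool-like cells of the same library, without a test because the clusters were formed from these cells. Bst2 was at 46.6 CPM (35.6 to 60.02) against 7.89 CPM, Ifit3 at 31.1 CPM (22.2 to 42.3) against 14.4 and H2-D1 at 178 against 110.4 CPM. H2-K1, at 124 CPM, Ifi27, at 263 CPM, Isg15, at 9.33 CPM, and Ifit1, at 21.0 CPM, differed from the NSC pool-like cells by less than their intervals. Bst2 and Ifit3 were the 2 of 9 genes past 2-fold, beside 8.05% of 11114 genes higher, and 0 were lower, beside 5.86%. Among low cells alone, with 116 activated NSC-like cells, Bst2 and Ifit3 kept log2 ratios of 2.48 (1.68 to 3.22) and 1.68 (0.85 to 2.43), while H2-D1 was at 0.07 (−0.37 to 0.48). There 2 of 8 genes were 2-fold higher and 0 lower, beside 7.32% and 8.46% of 10249 genes. Between low and normal activated NSC-like cells, 0 of the 3 antigen presentation genes were 2-fold higher, with a median log2 ratio of 0.27. Of 3 interferon-induced genes counted there 1 was 2-fold higher, and over all 4226 genes counted the share was 7.90%. Microglial markers were at 185 CPM in activated NSC-like cells, and their part in the Bst2 level was not tested.

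The wider pathway was read from lists of 135 further genes, of which 132 were in the matrices and 79 had 20 UMIs or more over the NSC pool of both libraries. Of these, 11 were at least 2-fold higher in Opa1 cKO and 4 at least 2-fold lower, beside 3.97% and 3.75% of all genes counted. The median log2 ratio of the 79 was 0.15. Of the 9 interferon ligands none had a UMI in CT, and Ifng had 4 UMIs in 12483473 in Opa1 cKO, all other ligands being at 0. Among receptors 0 of 5 and among JAK, STAT and IRF genes 0 of 9 were past 2-fold. Ifnar1, the type I receptor chain, was at 34.2 and 34.3 CPM and Stat2 at 15.4 and 12.1 CPM.

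Of 11 sensors and adaptors, 3 were higher and 1 lower. Ifih1, a sensor of long double-stranded RNA, had 6 and 35 UMIs and a log2 ratio of 1.37 (0.11 to 2.92). The adaptors Ticam1 and Myd88 of the Toll-like receptors were at 1.60 (0.68 to 2.66) and 1.43 (0.58 to 2.41). Tlr3, an endosomal receptor of double-stranded RNA that signals through Ticam1, had 63.8 CPM in Opa1 cKO against 169.7 CPM in CT, with a ratio of −1.41 (−1.58 to −1.24). Sensors and adaptors thus had ratios in both directions.

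Of 31 other interferon-induced genes, 7 were higher and 2 lower. Cxcl10, a chemokine that draws T cells, had 1 UMI in CT against 120 in Opa1 cKO, with a log2 ratio of 5.74 (3.23 to 11.1), and 5 cells held 55 of the 120 UMIs. Tor3a, a torsin-family ATPase, was the broadest of them, with 20.1 and 62.2 CPM and a ratio of 1.63 (1.28 to 1.99), and its 528 UMIs in Opa1 cKO lay in 438 cells with at most 4 each. It was also higher in low than in normal Opa1 cKO cells, 83.2 against 19.8 CPM. Rsad2, which encodes the antiviral enzyme viperin, and its neighbour Cmpk2 were at 1.47 (0.44 to 2.67) and 1.45 (0.36 to 2.74), Ly6e at 1.29 (0.02 to 2.84) and Ifi35 at 1.09 (0.09 to 2.24). Slfn5, a member of the Schlafen family, and Dtx3l, a ubiquitin ligase, were lower, at −1.61 (−2.09 to −1.14) and −1.09 (−2.13 to −0.04). Among inhibitors, Socs3, which blocks JAK signalling, had 6 and 64 UMIs and a ratio of 2.25 (1.04 to 3.74). The interferon-induced protease gene Usp18, another inhibitor, was at 1.88 CPM against 3.97 CPM in CT, a ratio of −1.08 (−2.19 to 0.04) whose interval reached 0.

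Of 15 other genes of the class I pathway 0 were past 2-fold, beside 3.97% higher and 3.75% lower of all genes, with a median of 0.20. Tap1, a peptide transporter, was at 7.68 and 7.65 CPM, the immunoproteasome subunit Psmb8 at 6.88 and 7.89 CPM and Tapbp at 49.3 and 41.3 CPM. Nlrc5, the transactivator of class I genes, had 0 UMIs in CT, which allows up to 0.977 CPM, and 4 in Opa1 cKO. The 8 class II genes together had 28 of the 5051491 UMIs in all kept CT cells and 83 of the 12483473 UMIs in Opa1 cKO.

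Between low and normal Opa1 cKO cells, 72 of the further genes could be counted, and 7 were 2-fold higher and 3 lower, beside 6.32% and 2.15% of all genes counted. Besides Tor3a, the higher ones with an interval above 0 were Cxcl10 (2.07, 1.21 to 3.07), Myd88 (1.29, 0.38 to 2.32), Parp9 (1.31, 0.12 to 2.72) and the guanylate-binding protein gene Gbp7 (1.15, 0.56 to 1.78), while for Dhx58 and Gbp3 the interval reached 0. Ifitm2, an inhibitor of viral entry, was lower in low cells, 46.7 against 114 CPM and −1.28 (−1.54 to −1.03), as was Calr, a chaperone of class I assembly (−1.04, −1.21 to −0.88), and Ikbke (−1.82, −3.11 to −0.61). The lists thus held genes on both sides of the mt share split.

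Over 13 profiles of a library and class with at least 100000 UMIs, the genes whose levels ranked most like the interferon-induced sum were Casp6, Sri, Ifitm3, Sparc and Il10rb (Spearman's rho 0.94 to 0.97, of 7149 genes). For the antigen presentation sum they were Copz2, H2-T22, Ginm1, Spr and Pttg1ip (0.94 to 0.97). These profiles share libraries and depth, and the high endothelial-like level weighs in each, so the values are a description.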

How the data were processed

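Per the labels, live YFP+ cells were run on the 10x Genomics 3′ platform, and the authors deposited for each library a matrix of raw UMI counts per gene and barcode, made with Cell Ranger 2.1.1 against mm10; the matrix headers name software version 3.1.0, and the annotation used for counting is not given in the sources used here. All values were whole counts. Kept were barcodes with between 600 and 7500 genes detected, a mitochondrial share below 20% and a YFP UMI, which were 1790 of 4634 in CT and 3764 of 6475 in Opa1 cKO. Both libraries were clustered together with Seurat 5.3.0 and sctransform 0.4.2 in R 4.3.3 (8 dimensions, resolution 0.2), which gave 8 clusters. To be considered for a cluster, a type needed at least 3 of its fixed markers more than 2-fold over the lower quartile of the other clusters. Genes were ranked by this fold, and the type with the most markers among the 50 leading genes gave the name. A name was dropped if another type had more markers at the very top of that ranking. The lower quartile was chosen as baseline after the clusters were seen. No doublet caller was run; the upper gene limit removed the richest barcodes.

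UMIs were summed per class and library with python 3.11.15, numpy 2.4.6, pandas 2.3.3 and scipy 1.17.1. Levels have exact Poisson, shares exact binomial (Clopper-Pearson) and ratios exact conditional binomial intervals at 95%. The ratio intervals were tested only on simulated Poisson counts, the error they assume. That test does not cover genes whose UMIs are gathered in few cells. A level of 0 was set at 3 counts in a ratio, which is then a bound. With 1 library per genotype no test between samples was possible, and genes were counted when past 2-fold with at least 20 UMIs. The genes, the wider lists and the markers were chosen with earlier results of these data known. Named were the 9 genes, those of the wider lists past 2-fold whose interval did not reach 0 (at most 15), and the 5 most alike genes; the levels given for other pathway genes and the limit of 4 UMIs for cells rich in interferon-induced genes were chosen after values were seen. Results were recomputed under 17 planned and 4 added alternatives. Gene positions are from GENCODE M21 (mm10), and promoters from RefSeq (GRCm38.p6).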

Additional observations from a re-analysis of the deposited data

Results flagged for a closer look

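Ifit1 and Isg15 were lower in Opa1 cKO than in CT in endothelial-like cells, with log2 ratios of −0.73 (−1.42 to −0.04) and −0.60 (−1.16 to −0.04), whereas they were higher in Opa1 cKO NSC pool-like cells. The difference between the classes was not tested, since each genotype is 1 library.

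Barcodes that the filters removed, 2844 in CT and 2711 in Opa1 cKO, also held the genes at higher levels in Opa1 cKO, although these barcodes enter the report only where the YFP filter is left off. The log2 ratios of Opa1 cKO over CT were 0.34 for Ifi27, 1.31 for Ifit1, 1.23 for Ifit3, 1.17 for Isg15, 0.80 for Bst2, 0.63 for B2m, 0.31 for H2-K1 and 0.77 for H2-D1, with intervals above 0, and that of Irf7 was 0.49 with an interval that reached 0. In these barcodes microglial markers summed to 235 CPM in Opa1 cKO against 321 CPM in CT, endothelial markers to 1757 against 1146 CPM and mural markers to 2796 against 2667 CPM. Their part in the ratios was not tested.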

How the results depend on the processing

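No paired analysis was possible because each genotype is 1 library. Of 288 values of the 9 genes under the alternatives, 265 stayed within the counting interval of the reported value. The sign changed in 16, of which 12 were values whose interval reached 0. H2-D1 in Opa1 cKO over CT ranged from 1.06 to 1.39 and Isg15 from 2.39 to 4.80. Centred on the median gene, the interferon-induced sum was at 0.53 in Opa1 cKO over CT and 0.21 in low over normal mt share, the antigen presentation sum at 0.50 and 0.19, and B2m in low over normal cells at −0.11. The interferon-induced sum without Ifi27 was at 0.98 and 1.71. In another alternative, chosen after seeing the data, cells of 4 or more UMIs of the other 5 genes were left out. There the sum of all 6 genes, Ifi27 included, was at 0.54 and 0.33, and most of its UMIs were of Ifi27. Without the 1% of cells richest in the 9 genes, its ratio of low over normal cells was 0.36, and with 1 limit at 1% that of the antigen presentation sum was 0.35. Ifit3 in low over normal cells changed sign without the YFP filter (−0.15), without the richest 1% (−0.077) and without cells of 4 or more UMIs (−0.39). In the wider lists a minimum of 100 UMIs left 2 genes higher and 2 lower and a minimum of 1 UMI 20 lower, with fewer and more genes counted, and 2 were lower without the YFP filter, after log-normalization, and with interferon, mitochondrial and stress response genes kept out of the clustering, where the cause was not tested. With 3 to 89 UMIs of Isg15 and 6 to 20 of Irf7 in NSC pool-like cells, depth limits the ratios of the rare genes, and differences between mice cannot be told apart from those between libraries.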
